A study of Homo sapiens with 14 samples.

Results

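Cytosolic ribosomal protein genes were followed in 14 RNA-seq libraries of 2 human leukaemia cell lines. A gene was taken as a member when its symbol began with RPL, RPLP, RPS or RPSA in the form used for the proteins of the cytosolic ribosome. The rule found 77 genes among 15025 gene rows in each MV4;11 table and among 15031 in the EOL-1 table. Of these, 46 encode proteins of the large 60S subunit and 31 encode proteins of the small 40S subunit. All 77 had rows in each of the 3 tables and passed the filter on low counts in every fit. FAU and GNB2L1 (the older symbol of RACK1) also encode ribosomal proteins but have other symbols, and they are described apart. The rule uses names only, so no measured value chose a member.

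MV4;11 is a human myelomonocytic leukaemia line that carries a KMT2A fusion. EOL-1 cells were derived from a patient's eosinophilic leukaemia and carry a FIP1L1-PDGFRA fusion. In MV4;11, a hairpin against EZH2 (shEZH2) was set against an empty vector control (EV), and 2 guide RNAs labelled as targeting MYC (sgcMyc guide 1 and guide 5) were set against the control labelled sgEV. In EOL-1, a guide against EZH2 (sgEZH2) was set against its own sgEV control. Each of these 7 groups has 2 libraries, and every group, controls included, received 1 µg/ml doxycycline for 4 days. EZH2 was targeted with 1 hairpin in MV4;11 and with 1 guide in EOL-1, and whether the cells were clones or pools is not stated in the sources used here. No label states whether libraries with the same group name were grown separately, so the p-values here speak of differences among these libraries and their spread may be technical.

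Each ribosome carries a single copy of most of its proteins, and cells make these proteins in matched amounts. Their mRNAs are short, abundant and long-lived, and most begin with a C followed by a run of pyrimidines, the terminal oligopyrimidine or TOP motif, through which the kinase complex mTORC1 and the RNA-binding protein LARP1 set their translation and stability. MYC is a transcription factor that drives ribosome synthesis at many levels. EZH2 is the histone methyltransferase of Polycomb repressive complex PRC2.

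The libraries held 15034533 to 16274568 gene counts in the shEZH2 and EV libraries, 13313052 to 15043385 in the sgcMyc and sgEV libraries and 24574102 to 30256823 in EOL-1. The members took 1207115 to 4483414 counts of a library. The chi-square of the difference between the libraries of a group, averaged over members, was 2.31 per gene in the MV4;11 sgEV group, where counting error is thus a large part of the spread, and 7.65 to 112 per gene in the other groups. EZH2 stood at 9.74 and 9.69 CPM (TMM-scaled CPM, the gene's counts relative to its library's total) in shEZH2 libraries, against 73.2 and 75.7 CPM in EV libraries. In EOL-1 it stood at 27.8 and 26.1 CPM in sgEZH2 libraries, against 70.6 and 70.4 CPM in sgEV libraries. MYC stood at 866 and 871 CPM in the libraries labelled guide 1 and 818 and 822 CPM in those labelled guide 5, against 657 and 660.2 CPM in sgEV libraries. The MYC transcript was thus higher in the sgcMyc libraries, and since an edit need not lower a transcript, it does not check the knockout, so the libraries are called after their labels throughout. MYC was also higher with shEZH2 (log2 fold change 0.25 ± 0.037, adjusted p = 0.000564) and not called in EOL-1 (-0.042), and EZH2 was lower with guide 1 (log2 fold change -0.21 ± 0.064, adjusted p = 0.0223) and not called with guide 5 (-0.16). All 5 markers of MV4;11 (FLT3, MEF2C, HOXA9, HOXA10 and MEIS1) were above 1 CPM in the MV4;11 libraries. In EOL-1, 4 of the 5 were above 1 CPM in sgEV library 1 and all 5 in the other libraries. This threshold thus does not separate the lines. The 5 genes summed to 241 to 272 CPM in EOL-1, and their sums in MV4;11 are given below. In the EOL-1 table PDGFRA stood at 60.4 to 62.3 CPM, while CLC, PRG2, EPX, IL5RA and CCR3 have no row, so the check of that line rests on 1 gene. Markers moved with the groups. The 8 myeloid genes were CD33, SPI1, CEBPA, MPO, CSF3R, PTPRC, ITGAM and CD68. They summed to 1302.6 to 1387.9 CPM with the guides, against 1138 to 1142 CPM with sgEV. In EOL-1 they summed to 964.4 and 965.9 CPM with sgEZH2, against 769 and 787 CPM with sgEV. On the spike-in scale described below, ITGAM, CD68, CSF3R and CEBPA were called higher with each guide and SPI1 with guide 5. MPO (-0.35 and -0.089), PTPRC (-0.083 and -0.10) and CD33 (0.23 and 0.20) were not called with either. With shEZH2 the myeloid genes summed to 780 and 804 CPM, against 829 and 852 CPM with EV. On the spike-in scale ITGAM (-1.42), CD68 (-0.57), MPO (-0.55) and PTPRC (-0.53) were called lower with shEZH2. CD33 (0.15), CSF3R (0.19), CEBPA (-0.094) and SPI1 (-0.0071) were not called. The 5 MV4;11 markers summed to 964 to 1033 CPM with the guides, against 1196 and 1232 CPM with sgEV, and to 797 and 803 CPM with shEZH2, against 1077 and 1119 CPM with EV. These 5 did not move as a set. On the spike-in scale FLT3 was called lower with each guide (-0.28 and -0.28) and HOXA10 higher (0.33 and 0.36). MEF2C, HOXA9 and MEIS1 were not called with either. With shEZH2 FLT3 (-0.47) and MEF2C (-0.90) were called lower on that scale, and HOXA9, HOXA10 and MEIS1 were not called. The part of these shifts in the ribosomal protein results was not tested.

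Libraries of a group differed in the members as a block. In the guide 5, EV and EOL-1 sgEZH2 groups all 77 members were higher in library 2 than in library 1, by a median of 0.19, 0.12 and 0.092 on the log2 scale. The shift between libraries was 0.062 with guide 1 (76 of 77 higher in library 2), 0.036 with shEZH2 (76 of 77), 0.016 in the MV4;11 sgEV group and -0.017 in the EOL-1 sgEV group. Members therefore do not count as separate observations of a condition, and these shifts between libraries are given again beside the shifts between groups.

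Start sites of 10 members are shown because they carry the TOP motif or lack it among the members that moved most and least. Sequences are RefSeq promoter windows of GRCh38.p14, 20 bases before the annotated start and 10 from it, written 5′ to 3′ on the gene's strand. Capitals mark the pyrimidine run of a TOP start, and in RPS28 the E-box CACGTG. The windows lie at chr9:127451397-127451426 (minus strand) for RPL12, chr19:49487588-49487617 (plus) for RPL13A, chr22:39319614-39319643 (minus) for RPL3, chr19:5690275-5690304 (plus) for RPL36, chr12:120201102-120201131 (minus) for RPLP0, chr15:69452798-69452827 (plus) for RPLP1, chr1:6199586-6199615 (minus) for RPL22, chr12:56041898-56041927 (plus) for RPS26, chr11:17077658-17077687 (minus) for RPS13 and chr19:8321476-8321505 (plus) for RPS28.
RPL12: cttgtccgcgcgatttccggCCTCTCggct
RPL13A: ccctgcgacaaaacctcctcCTTTTCCaag
RPL36: gagttccgcgcggcgccagcCCTTCCgcca
RPL3: gacccgtaaggccgaccggcctctaccggc
RPLP0: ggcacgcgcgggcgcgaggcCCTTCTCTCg
RPLP1: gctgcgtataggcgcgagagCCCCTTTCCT
RPL22: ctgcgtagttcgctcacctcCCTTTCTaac
RPS13: ggcgtttccactctcgctctCCTTTCgttg
RPS26: gctgggagacacataacctcgattttcttc
RPS28: ggctctccccgaagCACGTGactcctctcc
In all of these but RPL3, RPS26 and RPS28 the annotated start is a C followed by at least 4 further pyrimidines. Starts were not measured here. In RPS28 a pyrimidine run opens at the base after the annotated start, and RPL3 opens with C and a shorter run.

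The share of all gene counts that went to the 77 genes separated every EZH2-depleted or sgcMyc-labelled group from its control. It was 8.99 and 9.32% in guide 1 libraries and 8.66 and 9.67% in guide 5 libraries, against 10.8 and 10.9% in sgEV libraries. Both guide groups lay below the control with no overlap, by 1.70 and 1.69 percentage points. The share was 12.3 and 12.6% in shEZH2 libraries, against 11.1 and 11.9% in EV libraries, and the groups did not overlap, with a difference of 0.905 points. In EOL-1 it was 15.1 and 15.8% with sgEZH2, against 14.9 and 14.8% with sgEV, again without overlap, and 0.558 points apart. With 2 libraries against 2, an exact two-sided permutation test cannot go below p = 0.333, the value it gave in each of these 4 comparisons. The 2 guide groups overlapped, and their means lay 0.0078 points apart (guide 5 minus guide 1, exact permutation p = 1).

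**Figure D1:**
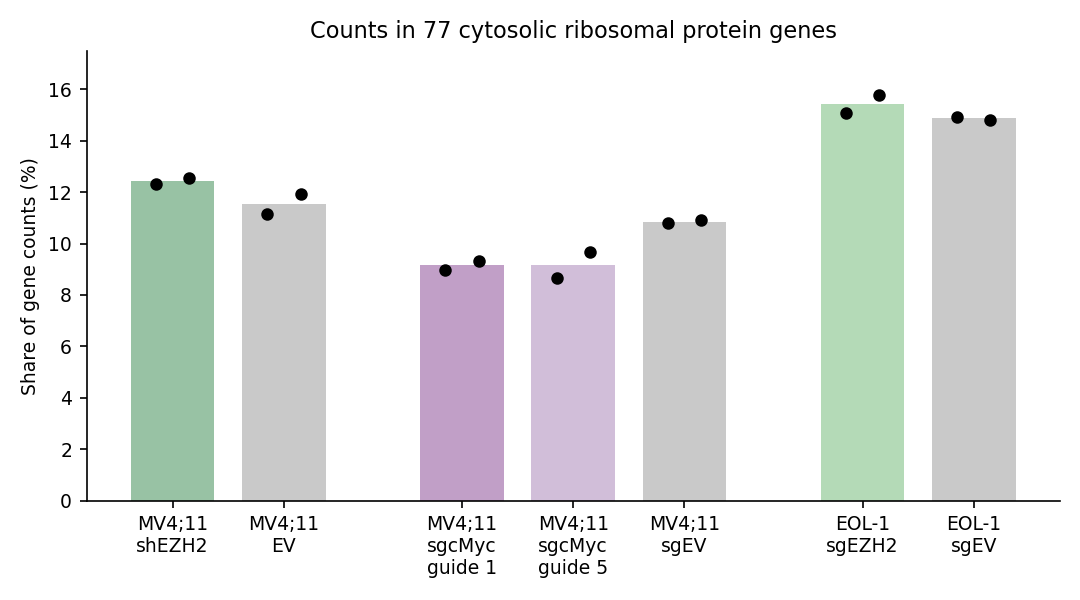
Share of gene counts in the 77 ribosomal protein genes, in percent. Points are the 2 libraries of a group and bars their mean; each depleted or guide group lies apart from the grey control to its right, and the 2 guide 5 libraries (8.66 and 9.67%) lie farthest from each other.

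The share of counts from the 13 protein genes of the mitochondrial genome moved with the groups too. It was 2.50 and 2.47% with guide 1 and 2.68 and 2.46% with guide 5, against 1.92 and 1.86% with sgEV, and 2.30 and 2.31% with shEZH2, against 1.81 and 1.84% with EV. In EOL-1 it was 0.953 and 0.965% with sgEZH2, against 0.929 and 0.899% with sgEV. With these genes left out of the denominator the groups stayed apart: the ribosomal share was 9.22 and 9.55% with guide 1 and 8.89 and 9.91% with guide 5, against 11.0 and 11.1% with sgEV. It was 12.6 and 12.9% with shEZH2, against 11.3 and 12.1% with EV, and in EOL-1 15.2 and 15.9% with sgEZH2, against 15.06 and 14.95% with sgEV.

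In the libraries labelled sgcMyc, ribosomal protein mRNAs fell together and by small amounts. With guide 1, 61 of 77 members passed the test as lower and 0 as higher, where 16% of all tested genes were called lower (edgeR quasi-likelihood test, Benjamini-Hochberg adjusted p under 0.05 over all genes). The median log2 fold change of the members was -0.24, against about 0 for all genes. With guide 5, measured against the same sgEV libraries, 58 members were lower and 0 higher, where 15.5% of all genes were called lower, and the median was -0.23, against -0.00065 for all genes. Beside these medians, the members differed between libraries of 1 group by a median of 0.062 with guide 1, 0.19 with guide 5 and 0.016 with sgEV. Both subunits took part: 37 of 46 60S members and 24 of 31 40S members were called lower with guide 1, and 34 and 24 with guide 5. Every guide 1 library lay below every sgEV library in 76 members, where 34.6% of all genes do so, and every guide 5 library did in 74 (32.7% of all genes). No member was called higher by DESeq2 either, and 0 were higher at an unadjusted p under 0.05 in either comparison by either tool.

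**Figure D2:**
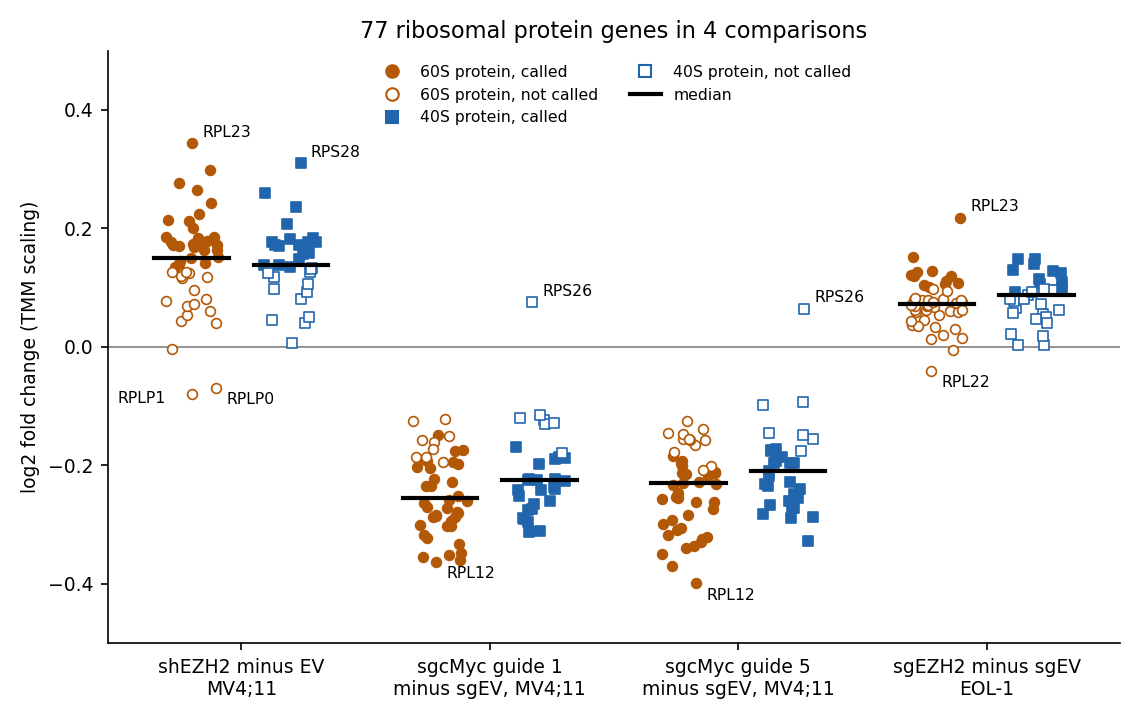
Log2 fold change of each ribosomal protein gene in 4 comparisons, 60S proteins as circles and 40S proteins as squares, filled where the adjusted p was under 0.05, with black bars at the medians. In both guide comparisons RPS26 is the lone member above 0, and with shEZH2 RPLP0, RPLP1 and RPL8 are the members below 0.

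RPL12, a protein at the base of the ribosomal stalk, had the lowest fold change in both. It stood at 1125 and 1159 CPM in guide 1 libraries and 1036 and 1191 CPM in guide 5 libraries, against 1454 and 1483 CPM in sgEV libraries. All 4 guide libraries lay below both control libraries, by 22.2% with guide 1 (log2 fold change -0.36 ± 0.061, adjusted p = 0.000636) and 24.2% with guide 5 (log2 fold change -0.40 ± 0.061, adjusted p = 0.000331). RPL13A, a 60S protein also known for blocking translation of inflammatory mRNAs once released, stood at 4032 and 4220 CPM with guide 1 and 3685 and 4489 CPM with guide 5, against 5226 and 5329.6 CPM with sgEV. Its log2 fold change was -0.36 ± 0.079 (adjusted p = 0.00579) with guide 1 and -0.37 ± 0.079 (adjusted p = 0.00488) with guide 5. RPL36 stood at 551 and 576 CPM with guide 1 and 556 and 612 CPM with guide 5, against 726 and 721 CPM with sgEV. RPL3, which lies close to the peptidyl transferase centre, stood at 2942 and 3024 CPM with guide 1 and 2799 and 3040.5 CPM with guide 5, against 3690.4 and 3748 CPM with sgEV. In both genes the groups stayed apart, with fold changes for guide 1 and guide 5 of -0.36 and -0.31 in RPL36 and of -0.32 and -0.35 in RPL3, all called. RPL8 stood at 1920.3 and 1990.4 CPM with guide 1 and 1935 and 2131 CPM with guide 5, against 2449 and 2526 CPM with sgEV, and RPL32 at 825 and 865 CPM with guide 1 and 778 and 896 CPM with guide 5, against 1044 and 1069.7 CPM with sgEV. These 2 were also called lower with guide 1 and with guide 5, with log2 fold changes of -0.35 and -0.29 for RPL8 and -0.32 and -0.34 for RPL32.

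RPL5 and RPL11 encode proteins that join 5S rRNA in a particle that binds the p53 regulator MDM2 when ribosome assembly stalls. Under TMM scaling both had lower mRNA levels with the guides. RPL5 stood at 1152 and 1179.9 CPM with guide 1 and 1115 and 1241 CPM with guide 5, against 1460.5 and 1476 CPM with sgEV (-0.33 ± 0.055 and -0.32 ± 0.055 on the log2 scale). RPL11 stood at 1031 and 1051 CPM with guide 1 and 973 and 1075 CPM with guide 5, against 1189 and 1186 CPM with sgEV, and was called lower at -0.19 ± 0.053 and -0.21 ± 0.053. Of the stalk proteins, which recruit elongation factors, RPLP0 fell with guide 1 to 2297 and 2368 CPM and with guide 5 to 2128 and 2384 CPM, against 2807 and 2859 CPM with sgEV (adjusted p = 0.00266 and 0.000948). RPLP1 and RPLP2 were called with guide 1 (-0.17 and -0.20) and missed the threshold with guide 5 (-0.15 and -0.15, adjusted p = 0.0931 and 0.0831). RPS6, the 40S protein phosphorylated by S6 kinase, stood at 2151 and 2217 CPM with guide 1 and 1986 and 2332 CPM with guide 5, against 2604 and 2644 CPM with sgEV, and was called lower with each guide (-0.26 ± 0.067 and -0.28 ± 0.067). RPS14, whose single-copy loss causes the anaemia of 5q- syndrome, was called lower too (-0.29 ± 0.071 and -0.27 ± 0.071). RPL10, needed for the last steps of 60S maturation, stood at 1603 and 1624 CPM with guide 1 and 1498 and 1666 CPM with guide 5, against 1881 and 1899 CPM with sgEV, and fell with each (-0.23 and -0.26). RPL39, a short protein lining the exit tunnel (-0.29 and -0.32), RPS27A, made as a ubiquitin fusion (-0.23 and -0.19), and RPL22 (-0.29 and -0.30) fell as well. RPS19, the gene most often mutated in Diamond-Blackfan anaemia, was not called (adjusted p = 0.136 with guide 1 and 0.0955 with guide 5).

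RPS26 was the member that did not lie lower. It stood at 306 and 319 CPM with guide 1 and 283 and 337 CPM with guide 5, against 299 and 294 CPM with sgEV. The guide 1 libraries lay above both controls and the guide 5 libraries on either side of them, and neither difference was called (log2 fold change 0.076 ± 0.071, adjusted p = 0.456 with guide 1 and log2 fold change 0.065 ± 0.071, adjusted p = 0.531 with guide 5). RPS26 sits at the mRNA exit channel of the 40S subunit. RPS13 stood at 765 and 787 CPM with guide 1 and 736 and 849 CPM with guide 5, against 847 and 843 CPM with sgEV, and RPS20 at 1215 and 1264 CPM with guide 1 and 1155 and 1352 CPM with guide 5, against 1331 and 1353 CPM with sgEV. In both genes guide 1 lay below the controls and guide 5 overlapped them, with no call (-0.12 and -0.093 for RPS13, -0.12 and -0.10 for RPS20). RPL6 stood at 1369.7 and 1363 CPM with guide 1 and 1266 and 1460.2 CPM with guide 5, against 1488 and 1486 CPM with sgEV (-0.12 and -0.13), and RPL19 at 1456 and 1514 CPM with guide 1 and 1389 and 1552 CPM with guide 5, against 1618 and 1620.0 CPM with sgEV (-0.12 and -0.14). Both lay below the controls in every guide library without passing the test. RPS4X, the X-linked copy of a 40S protein, was called with guide 5 (-0.17, adjusted p = 0.033) and missed the threshold with guide 1 (-0.12, adjusted p = 0.119).

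The number of calls depended on single libraries, while the size of the shift moved less. For guide 1 the count lower was 21 without sgEV library 1, 15 without sgEV library 2, 14 without guide 1 library 1 and 32 without guide 1 library 2, and the member median stayed between -0.27 and -0.21. For guide 5 the member median was -0.14 without guide 5 library 1 and -0.32 without guide 5 library 2. Where a library is left out, the lone library of its group is taken to vary like the other groups.

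No difference between guide 5 and guide 1 was detected in this family. Guide 5 minus guide 1 gave 0 calls among the 77 members, where 0.409% of all genes were called in either direction, and 0 members at an unadjusted p under 0.05, by edgeR and likewise by DESeq2. Member differences lay between -0.058 (RPS9) and 0.10 (RPS21) on the log2 scale, with a median of 0.0054 and a median SE of 0.061. The libraries of both groups overlapped in all 77 members, where 17.2% of all genes lay higher and 19.3% lower without overlap. RPS21, of the 40S subunit, stood at 355 and 421 CPM with guide 5, against 348 and 376 CPM with guide 1 (log2 difference 0.10 ± 0.075, adjusted p = 0.797), and RPL38 at 392 and 439 CPM with guide 5, against 378 and 413 CPM with guide 1 (log2 difference 0.072 ± 0.060, adjusted p = 0.82). RPL27 (0.064), RPL8 (0.056) and RPL36 (0.051) had the next smallest p-values and missed the threshold too. Since the SE of a member is larger than most of these differences, changes of that size cannot be seen with these libraries. The count of 0 rests on both guide 5 libraries: without guide 5 library 1 there were 34 members higher, and without guide 5 library 2 there were 16 lower.

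With EZH2 knockdown in MV4;11, ribosomal protein mRNAs were higher. In shEZH2 libraries 47 of 77 members passed the test as higher and 0 as lower, where 13.4% of all genes were called higher and 14.2% lower, and the member median was 0.15 on the log2 scale, against 0.0024 for all genes. Calls fell on 28 of 46 60S members and 19 of 31 40S members. Both shEZH2 libraries lay above both EV libraries in 61 members, where 32.1% of all genes do so, and below them in 2 (31.7% of all genes). No member was called lower by DESeq2, and 0 were lower at an unadjusted p under 0.05 by either tool. The shift between the EV libraries was 0.12, and that between the shEZH2 libraries 0.036. The rise differed among members by an SD of 0.076, where the median SE of a member was 0.045.

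RPL23, a 60S protein that also binds MDM2, had the highest fold change. It stood at 1029 and 1056 CPM in shEZH2 libraries, against 785 and 857 CPM in EV libraries (log2 fold change 0.34 ± 0.046, adjusted p = 0.000229), which is 27.0% higher. RPS28, at the 40S mRNA exit, stood at 931 and 973 CPM with shEZH2, against 734 and 801 CPM with EV (log2 fold change 0.31 ± 0.047, adjusted p = 0.000594). RPL5 stood at 1818 and 1860.1 CPM with shEZH2, against 1436 and 1554 CPM with EV, a rise of 0.30 ± 0.044. In all 3 genes the groups were well apart. RPL6 stood at 2015 and 2071 CPM with shEZH2, against 1632 and 1741 CPM with EV, and RPL15 at 2218 and 2258 CPM with shEZH2, against 1824 and 1902 CPM with EV. Both were called higher, at 0.28 ± 0.043 and 0.26 ± 0.039. RPS6 (0.24 ± 0.048, adjusted p = 0.00355), RPL22 (0.22 ± 0.040, adjusted p = 0.00175), RPL11 (0.14 ± 0.039, adjusted p = 0.0206), RPS14 (0.17 ± 0.045, adjusted p = 0.0161) and RPS19 (0.18 ± 0.045, adjusted p = 0.0135) rose as well.

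RPLP0 and RPLP1, of the stalk, had the lowest fold changes. RPLP0 stood at 3031 and 3106 CPM with shEZH2, against 3121 and 3316 CPM with EV, and RPLP1 at 1702 and 1729.7 CPM with shEZH2, against 1733 and 1894 CPM with EV. Both shEZH2 libraries lay below both EV libraries in these 2 genes, the only such members, though neither was called (-0.069 ± 0.042, adjusted p = 0.264, and -0.080 ± 0.046, adjusted p = 0.228). RPLP2 lay higher without a call (0.12 ± 0.044, adjusted p = 0.0742). RPL8 stood at 2660.3 and 2719 CPM with shEZH2, against 2603 and 2789.5 CPM with EV, and RPS3, a 40S protein at the mRNA entry, at 2342 and 2404 CPM with shEZH2, against 2285 and 2441 CPM with EV. Those groups overlapped, as did those of RPS27A (0.040) and RPL39 (0.054), and none of the 4 was called, whereas RPL3 (log2 fold change 0.17 ± 0.041, adjusted p = 0.00826) and RPL10 (log2 fold change 0.15 ± 0.040, adjusted p = 0.0159) were. The count of calls depended on single libraries: it was 72 higher without EV library 2, 13 without shEZH2 library 1 and 7 without shEZH2 library 2. The member median was 0.095 without EV library 1 (46 higher and 2 lower) and 0.21 at the most.

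In EOL-1, ribosomal protein mRNAs were also higher with sgEZH2, in 24 of 77 members by the test, and 0 were called lower (11.8% of all genes were), where 15.1% of all genes were called higher (26.9% in either direction), and the member median was 0.078, against 0.0051 for all genes. Calls fell on 12 60S and 12 40S members. Both sgEZH2 libraries lay above both sgEV libraries in 55 members (32.2% of all genes) and below them in RPL22 (29.9% of all genes). No member was called lower by DESeq2, and 0 were lower at an unadjusted p under 0.05 by either tool. The median shift between the groups was smaller than the 0.092 by which the members differed between the sgEZH2 libraries themselves. The count rested on single libraries: it was 1 without sgEV library 1, 1 without sgEV library 2 and 72 without sgEZH2 library 1, and without sgEZH2 library 2 there were 21 higher and 3 lower, with a member median of 0.029.

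RPL23 led in EOL-1 also, at 1009.8 and 1075 CPM with sgEZH2, against 910.5 and 882 CPM with sgEV (log2 fold change 0.22 ± 0.035, adjusted p = 0.000129). It was called with each library of either EZH2 table left out in turn and under every other setting tried. RPL27A stood at 2000.1 and 2132 CPM with sgEZH2, against 1885 and 1836 CPM with sgEV, and RPS28 at 905 and 983 CPM with sgEZH2, against 867 and 846 CPM with sgEV. RPL27A (0.15 ± 0.036), RPS12 (0.15 ± 0.036), RPSA, the 40S protein also known as laminin receptor (0.15 ± 0.036), and RPS28 (0.14 ± 0.037) had the next highest fold changes, all called. RPS12 stood at 2458 and 2623 CPM with sgEZH2, against 2286 and 2298 CPM with sgEV, and RPSA at 3027 and 3224 CPM with sgEZH2, against 2821 and 2822 CPM with sgEV. RPL5 was called (log2 fold change 0.12 ± 0.034, adjusted p = 0.0125), while RPL11 (0.021), RPS6 (0.073) and RPS14 (0.087) were not. RPS19 (log2 fold change 0.12 ± 0.035, adjusted p = 0.0197) and RPL39 (log2 fold change 0.11 ± 0.036, adjusted p = 0.0309) were called too, and RPL10 (0.10), RPL3 (0.059), RPLP0 (0.068), RPLP1 (0.053) and RPLP2 (0.081) were not. RPL41, the shortest ribosomal protein, stood at 2096 and 2229.5 CPM with sgEZH2, against 2191 and 2149 CPM with sgEV, and RPS21 at 610.0 and 665 CPM with sgEZH2, against 645 and 627 CPM with sgEV. In these 2, and in RPS15 (0.0028) and RPL14 (0.013), the groups overlapped and no call was made.

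Of the 47 members called higher with shEZH2 in MV4;11 and the 24 called higher with sgEZH2 in EOL-1, 17 were called in both, which is 36.2% of the MV4;11 list and 70.8% of the EOL-1 list. Since the MV4;11 list holds 47 of all 77 members, many shared calls arise without any link gene by gene. The shared count therefore does not show agreement between the lines. Fold changes of the 77 members in the 2 lines, which share no library, had a Pearson r of 0.32 and a Spearman rho of 0.27 across genes, which are not independent replicates. Fold changes were above 0 in both lines for 72 members and below 0 in both for 0. The members below 0 were RPLP0, RPLP1 and RPL8 in MV4;11 and RPL22 and RPL41 in EOL-1. With so few below 0 in each line, these joint counts follow from the shift of the family in each line. They show no agreement gene by gene.

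The difference between the lines was tested in 1 fit over both EZH2 comparisons, as the effect in MV4;11 minus the effect in EOL-1. As a caveat, a hairpin was set against EV in MV4;11 and a guide against sgEV in EOL-1. The EZH2 transcript was also 86.9% lower in MV4;11 and 61.7% lower in EOL-1. These differences cannot be told apart from the line. Among the members 5 passed as higher and 0 as lower, where 12.5% of all genes were called higher and 26.5% in either direction, so the share of members called lay below the share of all genes. All 5 are 60S proteins, and the member median of the difference was 0.084, against 0.0050 for all genes. RPL22, which has a close paralog RPL22L1, had the largest difference (log2 difference 0.27 ± 0.049, adjusted p = 0.000778). RPL22 stood at 826 and 858 CPM with shEZH2, against 708 and 735 CPM with EV, and in EOL-1 at 725 and 747 CPM with sgEZH2, against 766 and 748 CPM with sgEV. It rose in MV4;11 and was not called in EOL-1 (log2 fold change -0.040 ± 0.032, adjusted p = 0.401). RPL6 (log2 difference 0.21 ± 0.054, adjusted p = 0.01), RPL5 (log2 difference 0.19 ± 0.057, adjusted p = 0.0227) and RPL15 (log2 difference 0.16 ± 0.050, adjusted p = 0.0232) were among the 5 too. The lowest differences were those of RPLP0 (log2 difference -0.13 ± 0.058, adjusted p = 0.119) and RPLP1 (log2 difference -0.12 ± 0.063, adjusted p = 0.17). At an unadjusted p under 0.05, 20 members were higher and 1 lower by edgeR and 23 higher and 2 lower by DESeq2, which called 11.

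**Figure D3:**
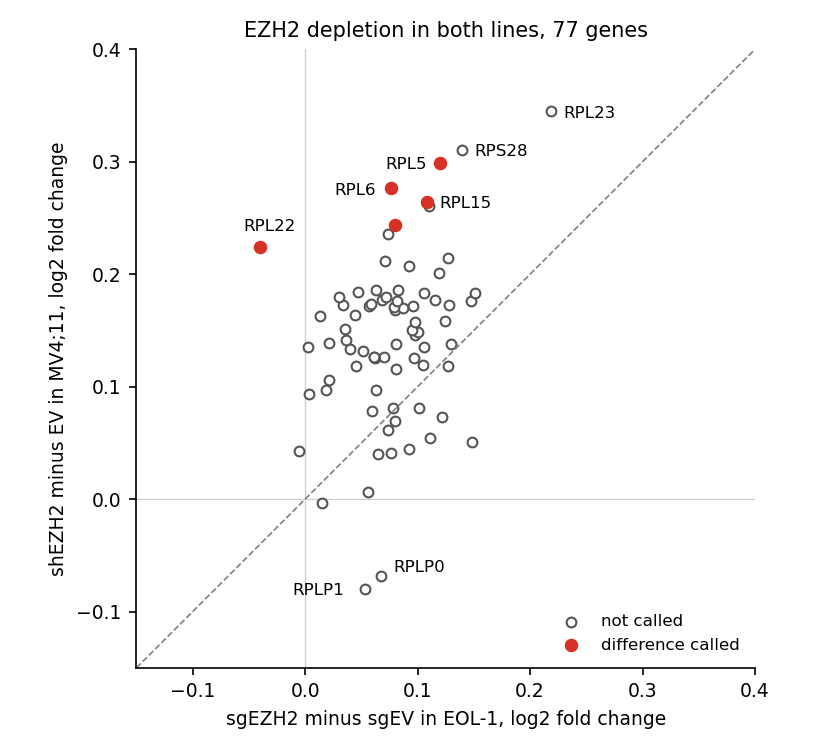
Log2 fold change with shEZH2 in MV4;11 (vertical) against that with sgEZH2 in EOL-1 (horizontal) for the 77 members, with the line of equal change dashed. Red points are the 5 genes whose difference between the lines had an adjusted p under 0.05. Among these 5, RPL22 is the one above 0 in MV4;11 and below 0 in EOL-1.

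The count of 5 moved with single libraries: it was 34 without EV library 2, 18 without EOL-1 sgEZH2 library 2, 3 without EV library 1 (and 5 lower), 2 without shEZH2 library 1, 1 without shEZH2 library 2, 2 without EOL-1 sgEV library 1, 1 without EOL-1 sgEV library 2 and 2 without EOL-1 sgEZH2 library 1 (and 2 lower). RPL22 was called in all 16 alternatives, between 0.23 and 0.29 on the log2 scale, and RPL6 in 14 of 16.

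Spike-in RNA gave a second scale in MV4;11, where each table lists 56 ERCC rows. These rows took 1.15 and 1.18% of counts with guide 1 and 1.06 and 1.18% with guide 5, against 1.22 and 1.24% with sgEV, and 1.25 and 1.27% with shEZH2, against 1.202 and 1.30% with EV. Scaled to their sum, the median of all genes shifted by 0.083 with guide 1 and by 0.15 with guide 5, and by -0.044 with shEZH2. On this scale the members had a median of -0.15 with guide 1, with 39 called lower and 0 higher (7.28% of all genes lower), and of -0.084 with guide 5, with 17 lower and 1 higher (5.94 and 21.4% of all genes). With shEZH2 the median was 0.10, with 20 higher and 1 lower (5.92 and 10.4% of all genes). The member called higher with guide 5 was RPS26 (0.21 ± 0.065, adjusted p = 0.0407), and the member called lower with shEZH2 was RPLP0 (-0.11 ± 0.035, adjusted p = 0.0474). RPL12 stayed called lower with guide 5 (-0.26 ± 0.044, adjusted p = 0.00269), and RPL23 stayed called higher with shEZH2 (0.30 ± 0.047, adjusted p = 0.00138). RPL5, RPLP0 and RPS6 stayed called lower with each guide. The calls of RPL11, RPS27, RPS27A and RPS28 were lost with both guides. Those of RPLP1 and RPLP2 were lost with guide 1, and those of RPL10, RPL22, RPS14 and RPS4X with guide 5. With shEZH2 the calls of RPL10, RPL11, RPS14 and RPS27 were lost. Guide 5 minus guide 1 again gave 0 members called (0% of all genes higher and 0.00717% lower), with a median of 0.064 for members and 0.061 for all genes. In bulk RNA, fewer cells of a type and less RNA per cell cannot be told apart, and whether spike-in was added per cell or per amount of RNA is not given in the sources used here.

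**Figure D4:**
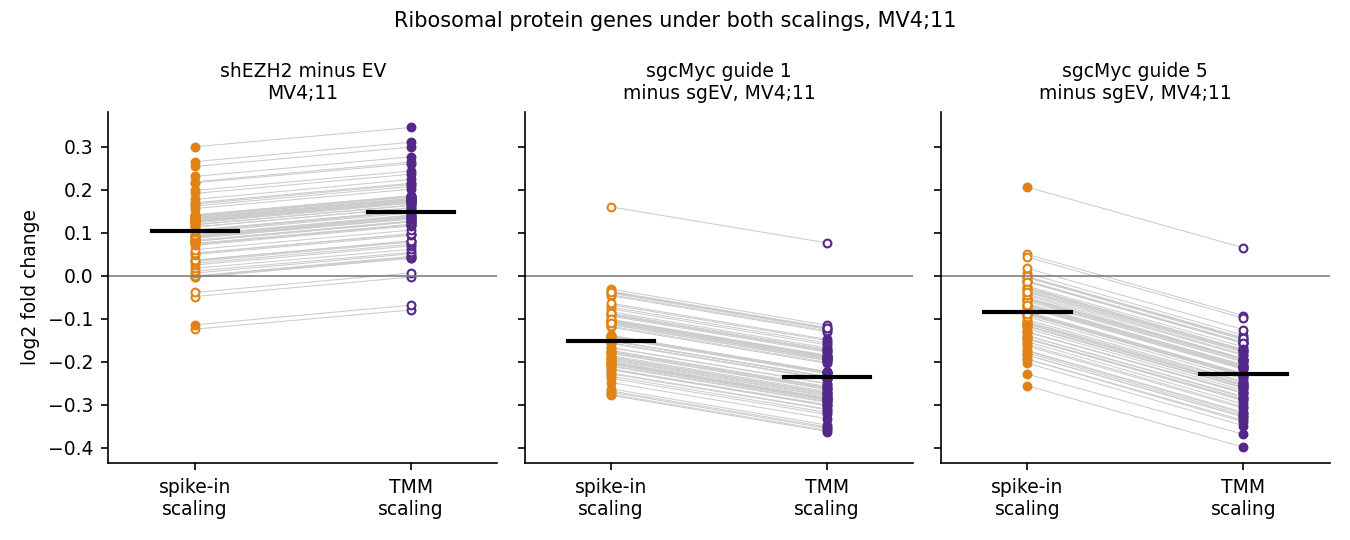
Log2 fold change of the 77 members in MV4;11 with libraries scaled by the summed spike-in rows (left of each panel) and by TMM (right), 1 line a gene, filled where called, black bars at the medians. On the spike-in and TMM scales the medians are -0.15 and -0.24 with guide 1, -0.084 and -0.23 with guide 5, and 0.10 and 0.15 with shEZH2, and the lines of a panel run nearly parallel.

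Other mRNAs with a TOP start, mostly translation factors, moved in the same direction as the ribosomal protein genes. Of 23 such genes tested, 17 were lower and 1 higher with guide 1 (median -0.23; 16% of all genes lower), and 17 lower and 1 higher with guide 5 (median -0.25; 15.5% of all genes lower). With shEZH2 14 were higher and 0 lower (median 0.15; 13.4% of all genes higher), and in EOL-1 6 were higher and 1 lower (median 0.057; 15.1% of all genes higher). On the spike-in scale 10 were lower with guide 1 (7.28% of all genes), 6 lower with guide 5 (5.94% of all genes) and 10 higher with shEZH2 (5.92% of all genes). EEF2, the translocation factor, stood at 6139 and 6189 CPM with guide 1 and 6109 and 5885 CPM with guide 5, against 9016 and 9005 CPM with sgEV (-0.55 ± 0.052 and -0.59 ± 0.052). With shEZH2 it stood at 8729 and 8767 CPM, against 7495 and 7361 CPM with EV (0.24 ± 0.040), and in EOL-1 it was not called (-0.010). EEF1A1, which delivers aminoacyl-tRNA, stood at 16932 and 17183 CPM with guide 1 and 15554 and 17439 CPM with guide 5, against 20351 and 20628 CPM with sgEV, and was called lower with each guide.

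Host genes of small nucleolar RNAs that share the TOP start were lower with the guides, with medians below that of the family. Of 10 tested, 7 were lower and 0 higher with guide 1 (median -0.60; 16% of all genes lower) and 7 lower and 0 higher with guide 5 (median -0.55; 15.5% of all genes lower). On the spike-in scale 6 were lower with guide 1 (7.28% of all genes) and 5 with guide 5 (5.94% of all genes). GAS5 stood at 142 and 147 CPM with guide 1 and 131 and 155 CPM with guide 5, against 246 and 239 CPM with sgEV (-0.74 ± 0.066 and -0.76 ± 0.066), and the groups were far apart. EPB41L4A-AS1 fell by more, to 14.4 and 15.2 CPM with guide 1 and 12.9 and 15.5 CPM with guide 5, against 29.01 and 30.71 CPM with sgEV. SNHG6 (-0.094 and -0.11) and SNHG5 (-0.036 and -0.17) were not called. With shEZH2 1 host rose, SNHG5 (log2 fold change 0.33 ± 0.086, adjusted p = 0.0175), and 0 fell, where 13.4% of all genes rose, and the call was lost on the spike-in scale (adjusted p = 0.0587). In EOL-1 3 rose, GAS5 (0.15), EPB41L4A-AS1 (0.31) and ZFAS1 (0.13), where 15.1% of all genes rose, and 0 fell.

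Nuclear genes for respiratory chain subunits, other short and abundant mRNAs, moved against the family with the guides. Of 44, 29 were higher and 0 lower with guide 1 (median 0.28, where 16.2% of all genes were called higher) and 33 higher and 0 lower with guide 5 (median 0.34, 15.7% of all genes). With shEZH2 3 were higher and 3 lower (median -0.014), and in EOL-1 5 were higher and 1 lower (median 0.023). Genes of the mitochondrial genome rose in all 4 comparisons, 12 of 13 with guide 1 and with guide 5, 13 of 13 with shEZH2 and 8 of 13 in EOL-1, and 0 fell. The shares of all genes called higher were 16.2% with guide 1, 15.7% with guide 5, 13.4% with shEZH2 and 15.1% in EOL-1.

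**Figure D5:**
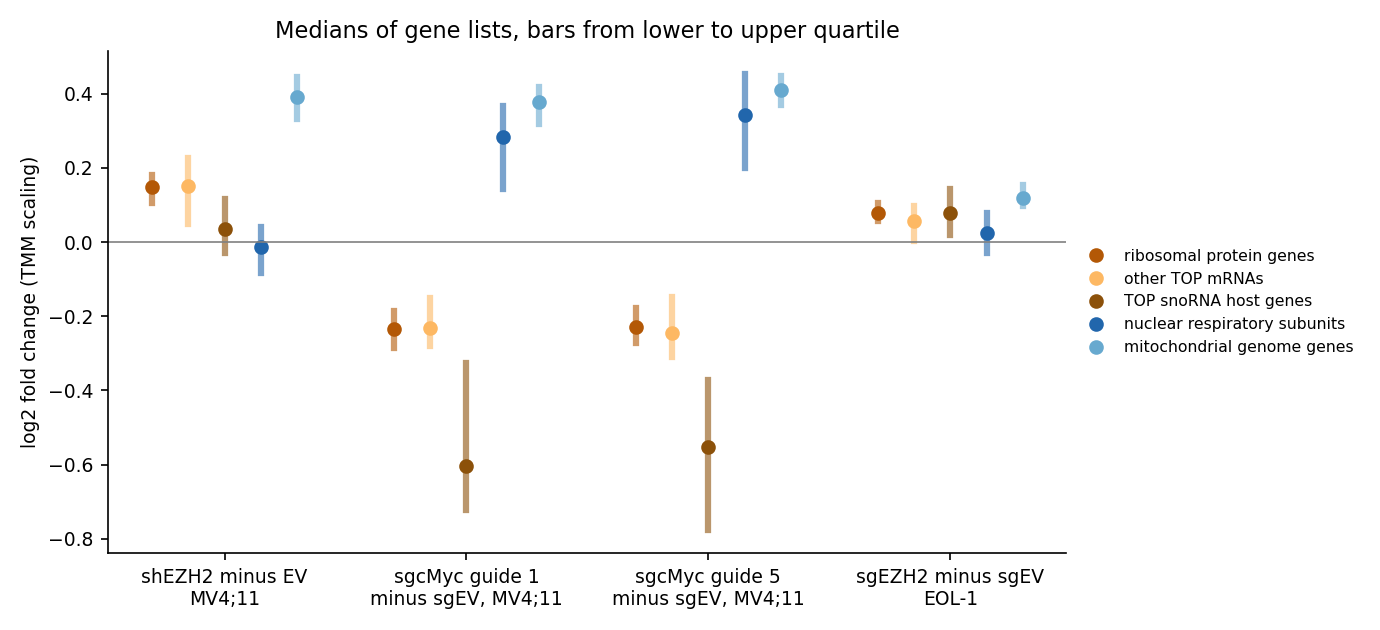
Median log2 fold change of 5 gene lists in 4 comparisons under TMM scaling, with bars from the lower to the upper quartile of the listed genes tested. Ribosomal protein genes and other TOP mRNAs lie close together in each comparison (medians of -0.24 and -0.23 with guide 1), while the medians of TOP small nucleolar RNA hosts are at -0.60 and -0.55 in the guide comparisons.

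FAU and GNB2L1, outside the rule for their symbols, differed. GNB2L1 (RACK1), a signalling scaffold on the 40S head, stood at 1714 and 1739.7 CPM with guide 1 and 1645 and 1787 CPM with guide 5, against 2325 and 2321 CPM with sgEV (-0.43 ± 0.052 and -0.44 ± 0.052), a larger fold change than that of any member. FAU, made as a fusion with a ubiquitin-like protein (-0.00084 and 0.036), was not called with the guides. GNB2L1 rose with shEZH2 (0.15 ± 0.042) and FAU in EOL-1 (0.10 ± 0.035). On the spike-in scale the call of GNB2L1 with shEZH2 was lost (adjusted p = 0.104).

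Paralogs of members were mixed, with RPS27L and RPL22L1 among those called. RPS27L, a p53 target in human cells and paralog of RPS27, stood at 119.5 and 133 CPM with guide 1 and 123 and 130.3 CPM with guide 5, against 91.9 and 96.4 CPM with sgEV. It stood at 126 and 126 CPM with shEZH2, against 81.0 and 89.3 CPM with EV, and in EOL-1 at 86.0 and 88.4 CPM with sgEZH2, against 73.3 and 69.9 CPM with sgEV. It was called higher in all 4 comparisons, at 0.42 ± 0.062 with guide 1, 0.43 ± 0.062 with guide 5, 0.57 ± 0.055 with shEZH2 and 0.28 ± 0.043 in EOL-1. RPS27 itself fell with the guides (-0.17 and -0.17), rose with shEZH2 (0.16) and was not called in EOL-1 (0.10). RPL22L1 stood in EOL-1 at 105 and 112 CPM with sgEZH2, against 80.8 and 77.3 CPM with sgEV (log2 fold change 0.46 ± 0.044, adjusted p = 2.73e-07), the line in which RPL22 was not called. With shEZH2 it stood at 104 and 99.1 CPM, against 85.5 and 93.2 CPM with EV (log2 fold change 0.19 ± 0.057, adjusted p = 0.0306), and with the guides it was not called. RPL7L1 fell with guide 1 (-0.30), guide 5 (-0.26) and shEZH2 (-0.15). On the spike-in scale all 3 calls of RPL7L1 were lost (adjusted p = 0.0585 with guide 1, 0.276 with guide 5 and 0.0887 with shEZH2), as was that of RPL22L1 with shEZH2 (adjusted p = 0.289). RPL26L1, RPL36AL and, where it had a row, RPL39L were not called in any of the 4 comparisons.

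Among 17 genes that act on TOP mRNAs or in the mTORC1 arm, 5 were lower and 1 higher with guide 1 (16% of all genes lower), 3 lower and 1 higher with guide 5 (15.5% of all genes lower), 1 lower and 1 higher with shEZH2 (14.2% of all genes lower), and 8 lower and 0 higher in EOL-1 (11.8% of all genes lower). LARP1, which binds the TOP start, stood at 208 and 209.9 CPM with guide 1 and 239 and 216 CPM with guide 5, against 314 and 307 CPM with sgEV (-0.57 ± 0.052 and -0.45 ± 0.052), and on the spike-in scale it missed the threshold with guide 5 (adjusted p = 0.0544). In EOL-1 it stood at 149.6 and 139.9 CPM with sgEZH2, against 171 and 168 CPM with sgEV (-0.23 ± 0.038), and with shEZH2 it was not called (-0.072). EIF4EBP1, a repressor of cap-dependent translation that mTORC1 phosphorylates, was called lower in all 4, at -1.11 ± 0.049 with guide 1, -0.996 ± 0.05 with guide 5, -0.30 ± 0.061 with shEZH2 and -0.16 ± 0.039 in EOL-1. MLST8, a subunit of mTORC1, fell with the guides (-0.94 and -0.83) and in EOL-1 (-0.14). A further list of 18 genes holds chaperones and import factors of ribosomal proteins, and also other genes such as NOB1 and HUWE1. Of these 18, 7 were lower and 3 higher with guide 1 (16% of all genes lower, 16.2% higher), and 6 lower and 4 higher with guide 5 (15.5% lower, 15.7% higher). With shEZH2 6 were higher and 0 lower (13.4% higher), and in EOL-1 3 were lower and 0 higher (11.8% lower). The counts higher with the guides and lower in EOL-1 are near those shares of all genes. On the spike-in scale 4 were lower with guide 1 (7.28% of all genes), 1 lower with guide 5 (5.94%) and 1 higher with shEZH2 (5.92%). BCCIP, GRWD1 and TSR2 were called higher on that scale with guide 1, where 15% of all genes were. These genes, LTV1 and RRS1 were called higher on it with guide 5, where 21.4% of all genes were. GRWD1, whose yeast relative escorts a newly made 60S protein, was higher with guide 1 (0.21) and guide 5 (0.34), while NOB1, an endonuclease of 40S maturation, was lower (-0.60 and -0.51). These lists were chosen with earlier results of these data known.

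Start sites were read for the 62 members with a RefSeq window (250 bases before the start and 50 after it), and the other 15 were not analysed here. A C followed by at least 4 pyrimidines opened the annotated transcript in 46 of 62 members (74.2%), against 5.14% of 27305 genes with a window. The ETS-type core CCGGAA, searched on both strands, lay in 35 of 62 (56.5%), against 20.1% of all genes. The E-box CACGTG, a palindrome bound by MYC and MAX among others, lay in 4 of 62 (6.45%), against 8.78% of all genes, and these were RPL13A, RPL19, RPS19 and RPS28. Members with and without a TOP start in the window had medians of -0.24 and -0.23 with guide 1, -0.22 and -0.22 with guide 5, 0.13 and 0.17 with shEZH2 and 0.072 and 0.078 in EOL-1. With shEZH2, 20 of the 46 with a TOP start and 14 of the 16 without were called. The counts called were 38 and 11 with guide 1, 34 and 12 with guide 5 and 13 and 5 in EOL-1. The difference between the classes was not tested. RPL3 and RPL12, whose starts are printed above without and with the run, both fell with each guide, and of RPS26 and RPS28, both without it, RPS28 fell with each guide (-0.18 and -0.18) and RPS26 did not. The TOP class rests on annotated starts, which were not measured here, and would change with a start placed elsewhere. These are matches of letters and show no binding.

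All members but 1 have at least 1 processed pseudogene by name in GENCODE, up to 90 for RPL23A, 73 for RPSA and 66 for RPL21, and the authors' counting could split reads between a gene and its copies, so each member's level is uncertain to that extent. Members with more than 9 such pseudogenes and the others had medians of -0.24 and -0.23 with guide 1 and of 0.15 and 0.14 with shEZH2. Per kilobase of transcript, high levels in MV4;11 sgEV libraries (mean CPM per kb) among the 69 members with a length were those of RPL13A (4469 CPM per kb), RPL41 (3696 CPM per kb), RPS18 (3580.4 CPM per kb) and RPS2 (3300.3 CPM per kb). Levels in EOL-1 sgEV libraries, from a table scaled on its own and so given beside them as a description, were 5672 CPM per kb for RPL13A and 7954 for RPS18.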

How the data were processed

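RNA-seq was analysed in 14 libraries in 7 groups of 2, grouped by their titles; table columns have shorter names and were matched by target, guide and replicate number. The authors deposited, per the file headers, a raw column of estimated (expected) counts per gene and a normalised log2 column for each library, and a baseMean signal (mean normalised count) in the EOL-1 table, not used here. The authors made the expected counts with RSEM and used DESeq and build hg19, per the submitters' processing notes. Tool versions, the aligner and the strand of counting are not given in those notes, so reads of overlapping or antisense genes may be mixed. Estimated counts were rounded. Genes passed filterByExpr, libraries were scaled by TMM, and edgeR 4.0.16 (R 4.3.3) ran glmQLFit (robust) and glmQLFTest per table, with Benjamini-Hochberg adjustment over all genes and a threshold of 0.05. Errors behind ± are SE, computed as the size of the log2 fold change over the square root of F. In tables of MV4;11, 56 ERCC rows stayed out of library sizes and tests and gave the spike-in scale. Every table holds 18 rows that carry a date in place of a symbol; they were tested, not named. The biological coefficient of variation was 0.0352 (shEZH2), 0.0422 (sgcMyc) and 0.0257 (EOL-1). Libraries of 1 group differed beyond counting error (chi-square per degree of freedom 1.44 to 5.82).

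Alternatives were other scalings, filters, DESeq2 1.42.0, limma 3.58.1 on the authors' log2 values, a replicate block and each library left out. The scripts were tested on simulated counts. The members and lists were chosen with earlier results of these data known. Named genes are, per comparison, the 5 highest and 5 lowest members by fold change, the 5 smallest p in the guide and line differences, and fixed members of known role; of each other list, members of small p and further examples chosen after their values were seen. Some items that the rule names are not reported here. Sequences come from the RefSeq table of GRCh38.p14, and coordinates in hg19 were not used here. Of markers of other cells, the erythroid and fibroblast lists have 0 rows, B cell genes summed to 2.20 to 7.69 CPM, epithelial to 0.327 to 18.0 CPM, megakaryocyte to 0.0982 to 28.8 CPM, and the T and NK list has 1 row, NKG7, at 35.4 and 38.0 CPM with shEZH2, against 48.1 and 52.1 CPM with EV, and at 90.0 and 98.3 CPM with sgEZH2 in EOL-1, against 112 and 109 CPM with sgEV.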

Additional observations from a re-analysis of the deposited data

Results flagged for a closer look

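The EZH2 effect differed between the 2 lines in 5 ribosomal protein genes, by the test of the difference itself (effect in MV4;11 minus effect in EOL-1, edgeR quasi-likelihood test with Benjamini-Hochberg adjustment over all genes). Hairpin against guide, their controls and the size of the EZH2 loss (86.9% in MV4;11, 61.7% in EOL-1) cannot be told apart from the line. Of all genes 12.5% were called higher and 26.5% in either direction, so the count of 5 of 77 lies below that share, and with single libraries left out it ran from 1 to 34. The differences on the log2 scale included 0.27 for RPL22, 0.21 for RPL6, 0.19 for RPL5 and 0.16 for RPL15, each larger in MV4;11. Both shEZH2 libraries lay above both EV libraries in each of these genes, as in 61 of the 77 members and 32.1% of all genes. The genes were chosen from the same libraries, so this separation is no separate result. Of the 4 genes, RPL22 had a lower value in both sgEZH2 libraries of EOL-1 than in both sgEV libraries, as 29.9% of all genes did.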

How the results depend on the processing

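Every alternative kept the sign of the member median in the shEZH2, guide 1, guide 5 and EOL-1 comparisons. Counts moved by over 1.5 times as follows. Spike-in scaling gave 20 higher and 1 lower with shEZH2, 39 lower with guide 1 (median -0.15), and 17 lower and 1 higher with guide 5 (median -0.084). Library size alone gave 15 higher in EOL-1 and 1 lower in the difference between lines, which had 11 higher by DESeq2 and 13 with the replicate block. With each library left out in turn, counts ranged for shEZH2 from 7 to 72 higher and 0 to 2 lower (median 0.095 to 0.21), for guide 1 from 14 to 76 lower and 0 to 1 higher (-0.27 to -0.21), for guide 5 from 14 to 76 lower and 0 to 1 higher (-0.32 to -0.14), for guide 5 minus guide 1 from 0 to 34 higher and 0 to 16 lower (-0.092 to 0.097), for EOL-1 from 1 to 72 higher and 0 to 3 lower (0.029 to 0.11), and for the difference between lines from 1 to 34 higher and 0 to 5 lower (0.015 to 0.13). Differences in share ranged from 0.511 to 1.30 points for shEZH2, -1.86 to -1.53 for guide 1, -2.20 to -1.18 for guide 5 and 0.195 to 0.921 for EOL-1. Among named genes 2 values reversed: RPS14 in guide 5 minus guide 1 without guide 5 library 2 (-0.11, adjusted p = 0.0413; highest with a library left out 0.14) and RPS21 in EOL-1 without sgEZH2 library 2 (-0.061, adjusted p = 0.0379; highest 0.056). The cause was not tested.

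With 2 libraries a group, replicate numbers were not taken to pair libraries, as no label says that they do. Deviations of same-numbered libraries correlated at 0.17 (shEZH2 and EV), -0.014 (guide 1 and sgEV), 0.0023 (guide 5 and sgEV), 0.25 (guide 5 and guide 1) and -0.14 (EOL-1), and in all 5 MV4;11 groups 56 to 77 of 77 members were higher in library 2. With the replicate block, 61 members were higher with shEZH2, 70 lower with guide 1, 73 lower with guide 5, 0 called between guides and 17 higher in EOL-1. Crossed numbers in EOL-1, chosen after seeing the data, gave 29 higher. Spike-in scaling of EOL-1 was not possible with 0 spike-in rows there. Limits: 2 libraries a group, whole-family shifts between libraries (0.19 with guide 5, 0.12 with EV, 0.092 with EOL-1 sgEZH2) near the size of the effects, and 1 hairpin or guide for EZH2 in each line.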
